A study of Homo sapiens with 15 samples.

Results

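The comparison described here sets human A375 melanoma cells that overexpressed caMKL1, a constitutively active form of MKL1, for 48 hours against A375 cells with a control vector. It takes 6 of the 15 libraries of the series, 3 per group, and every gene of one deposited count table, 20323 genes, of which 13558 had enough counts to be tested. A375 is an established melanoma line. Both groups share the cell line and differ, as far as the labels say, in the introduced construct alone. The sources used here do not give the change that makes MKL1 constitutively active, the vector, how it was delivered, or whether the cells were a clone or a pool. A further 3 libraries of A375 cells that overexpressed unmodified MKL1 for the same time are used where a gene is compared between both forms. Whether the replicates were separate cultures is not stated, so p-values measure the spread between these libraries, which may be technical.

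MKL1, listed under the gene symbol MRTFA, works as a partner of the transcription factor SRF (serum response factor). It binds monomeric actin and is held out of the nucleus by it; when actin polymerises, MKL1 is released, enters the nucleus and joins SRF on a DNA motif called the CArG box. In muscle the related coactivator myocardin (MYOCD) drives contractile genes through the same SRF sites, and in other cells MKL1 is best known for genes of the actin cytoskeleton. A constitutively active form acts without waiting for the actin signal.

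Total counts were 22463063, 20784978 and 23957043 with the control vector and 20895879, 17850868 and 16557803 with caMKL1. The share of counts in the 10 most abundant genes was 5.09% to 5.44% with the control vector and 7.43% to 7.52% with caMKL1, and the mitochondrial share was between 3.20% and 4.02% in the 6 libraries. A principal component that held 85.0% of the variance parted the groups, and the next, with 4.93%, set control library 1 apart from the other libraries. Without that library, 1175 genes rose and 186 fell at least 2-fold, against 1087 and 195 with it with edgeR's quasi-likelihood test. Levels are given as CPM, the usual depth-scaled count unit, with library sizes adjusted by TMM, for each library in the order of its number. MRTFA itself (ENSG00000196588, chromosome 22, 40410281 to 40636702 in GRCh38) was at 25.8, 25.4 and 25.4 CPM in the control libraries and at 475, 457 and 459 CPM with caMKL1. The overexpressed gene was thus high in all 3 libraries labelled caMKL1, although gene counts cannot tell transcripts of the construct from those of the cellular gene. The melanocyte and melanoma markers fixed for the check (MITF, SOX10, PMEL, MLANA, TYR, DCT, S100B, MIA and PRAME) summed to between 1210 and 1300 CPM with the control vector and to between 1080 and 1180 CPM with caMKL1, and each was recorded in the table. Lymphocyte markers summed to at most 1.22 CPM in any library, with CD2, CD3G and MS4A1 at 0 counts in all.

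caMKL1 changed the level of most tested genes. By the quasi-likelihood test of edgeR, adjusted by Benjamini-Hochberg at a threshold of 0.05, 8623 of 13558 genes passed (63.6%), of which 4136 rose (30.5% of those tested) and 4487 fell (33.1%). Most of these changes were small. Only 1282 genes (9.46%) also changed at least 2-fold, and here rises outnumbered falls: 1087 rose at least 2-fold (8.02%) and 195 fell at least 2-fold (1.44%). The authors' deposited table lists 7494 genes with an adjusted p under 0.05, 3708 of them higher and 3786 lower with caMKL1. Some of the strong rises began from genes that were hardly recorded in control cells: among the 12842 tested genes at 0.5 CPM or more in each control library, 706 rose at least 2-fold (5.50%) and 189 fell at least 2-fold (1.47%). A gene that is near 0 in control cells enters the test only if caMKL1 raises it. Counts of gene lists are therefore given for tested members and, where 2-fold rises are counted, also for control-expressed members, meaning those at 0.5 CPM or more in each control library. They are to be read against these background shares, 8.02% and 1.44% for tested genes and 5.50% and 1.47% for control-expressed genes.

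**Figure D1:**
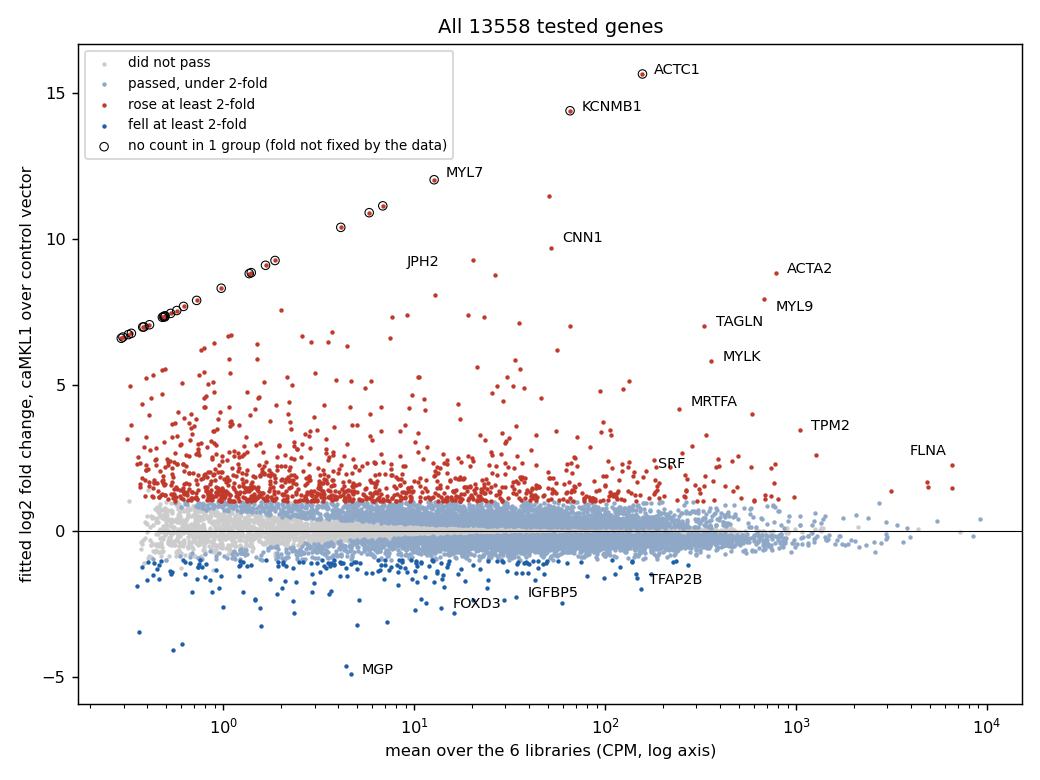
Fitted log2 fold change of each of the 13558 tested genes, caMKL1 over control vector (vertical axis), against the mean level over the 6 libraries in CPM (horizontal log axis); colours mark the call, and rings mark genes with no count in 1 group, whose fold the counts do not fix. The upper edge holds muscle genes such as ACTC1, KCNMB1, MYL7, CNN1, ACTA2, MYL9 and TAGLN. It also holds genes from outside muscle, such as RPE65, NPAS4 and VTCN1, which are not labelled. Among the genes that fell, MGP is at a log2 fold change of -4.91.

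Muscle contractile genes were among the strongest rises, and some of them were hardly recorded in control cells. Of 30 listed genes of the smooth muscle contractile apparatus, 24 were tested, and 20 of those rose at least 2-fold (83.3%, against 8.02% of all tested genes) while none fell that far; the median log2 fold change of the tested members was 2.31, against -0.02 over all tested genes. Among the 20 members at 0.5 CPM or more in each control library, 16 rose at least 2-fold. Of 69 listed genes of the striated muscle sarcomere, 26 were tested and 17 of those rose at least 2-fold (65.4%), with a median of 1.78. Only 14 sarcomere genes were at 0.5 CPM or more in each control library, and 5 of these rose at least 2-fold. In bulk RNA, many cells with a moderate rise and few cells with a strong rise cannot be told apart.

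ACTC1 (ENSG00000159251, chromosome 15, 34788095 to 34795726), the actin of cardiac muscle, had 0 counts in all 3 control libraries and stood at 310, 321 and 308 CPM with caMKL1. Against the floor of 3 counts over the control group (0.0443 CPM), that is at least 7070-fold higher. MYL7 (chromosome 7, 44138864 to 44141332), the regulatory light chain of atrial myosin, also had 0 control counts and was at 26.1, 26.1 and 23.9 CPM, at least 575-fold higher. Both genes were thus absent from the control counts and abundant in every caMKL1 library. UNC45B, a chaperone that folds muscle myosin, had 0 control counts as well and was at 3.52, 3.40 and 3.05 CPM with caMKL1, at least 75.4-fold higher. ACTA1 (chromosome 1, 229431245 to 229434098), the actin of skeletal muscle, was at 0.133, 0.095 and 0.0413 CPM in the control libraries and at 15.4, 14.9 and 15.4 CPM with caMKL1 (log2 fold change 7.33 ± 0.21 SE). LDB3, a protein of the sarcomeric Z-disc, was at 0.356, 0.143 and 0.165 CPM against 39.2, 35.9 and 39.1 CPM (7.39 ± 0.157). In all of these the groups were far apart. ANKRD1, a titin-binding stress protein of heart muscle, rose from 1.82, 1.52 and 2.73 CPM to 60.8, 70.5 and 59.6 CPM.

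Smooth muscle genes changed with them. ACTA2 (ENSG00000107796, chromosome 10, 88935074 to 88991339), smooth muscle alpha-actin, was at 3.82, 3.18 and 3.22 CPM in the control libraries and at 1603, 1575 and 1499 CPM with caMKL1, 8.83 ± 0.0669 SE on the log2 scale (edgeR adjusted p = 5.69e-19). MYL9 (chromosome 20, 36541484 to 36551447), the regulatory light chain of smooth muscle and nonmuscle myosin, was at 5.73, 4.66 and 6.03 CPM against 1348, 1356 and 1351 CPM (7.94 ± 0.0651). TAGLN (chromosome 11, 117199321 to 117204782), an actin-bundling protein of smooth muscle, was at 5.73, 4.75 and 4.79 CPM against 685, 658 and 620 CPM (7.00 ± 0.0711). The caMKL1 libraries differed from each other by little in these genes, and no control library came near them. CNN1 (chromosome 19, 11538717 to 11550323), the calponin of differentiated smooth muscle, rose from 0.0889, 0.095 and 0.165 CPM to 107, 101 and 102 CPM (9.70 ± 0.123). ACTG2 (chromosome 2, 73892314 to 73919865), the actin of visceral smooth muscle, rose from 0.0445, 0.0475 and 0.248 CPM to 57.0, 54.2 and 48.0 CPM (8.74 ± 0.195). NEXN, an actin-binding protein of heart and smooth muscle, rose from 0.845, 1.38 and 1.20 CPM to 62.2, 66.1 and 69.7 CPM. MYLK, the kinase that switches on smooth muscle contraction, and LMOD1, an actin nucleator of smooth muscle, fall outside the rule for named genes and were added after their values were seen. MYLK was at 11.4, 13.5 and 12.3 CPM against 696, 733 and 680 CPM, and LMOD1 at 1.38, 1.76 and 1.40 CPM against 73.4, 66.8 and 68.9 CPM. The one smooth muscle gene that fell was HSPB6, a small heat shock protein, at 1.69, 1.52 and 1.32 CPM against 1.11, 0.906 and 0.854 CPM, and its call was lost with DESeq2 (adjusted p = 0.19) and in the fits without control library 1 or 2 or caMKL1 library 2 or 3.

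The markers fixed for smooth muscle (ACTA2, ACTG2, MYH11, CNN1, TAGLN, LMOD1, DES and MYOCD) summed to between 9.99 and 11.4 CPM with the control vector and to between 2340 and 2530 CPM with caMKL1. The list was not raised evenly, and ACTA2 and TAGLN held most of the caMKL1 sum. Of the 8 markers, 6 were tested and these 6 rose, while DES had too few counts for the test. MYH11, the heavy chain of smooth muscle myosin, which lies outside the rule for named genes, rose but stayed low, at 0.311, 0.190 and 0.0826 CPM against 0.530, 0.566 and 0.915 CPM, and MYOCD had 0 counts in all 6 libraries. Reads from actins are a limit here, because the muscle actins are near copies in their coding sequence. The counting method is not stated in enough detail to know how shared reads were split. The 0 counts for ACTC1 in control cells, in which ACTB stood at 3751, 3338 and 3337 CPM, were recorded in the presence of abundant cytoplasmic actin. ACTA2 was low in those cells, so they cannot show whether its reads were counted for other muscle actins with caMKL1. Opposite-strand overlaps are a further limit: 380 exonic bases of ACTA2 lie in FAS, and 446 of TAGLN in PCSK7. On the deposited FPKM scale, which is per length of transcript, ACTA2 in caMKL1 cells was at 1184, 1159 and 1104 FPKM, below ACTB at 5440, 5231 and 5111 FPKM and above ACTC1 at 223, 230 and 221 FPKM, ACTG2 at 56.6, 53.3 and 44.4 FPKM and ACTA1 at 10.3, 9.88 and 10.2 FPKM. No neighbours in that order overlapped in their libraries.

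**Figure D2:**
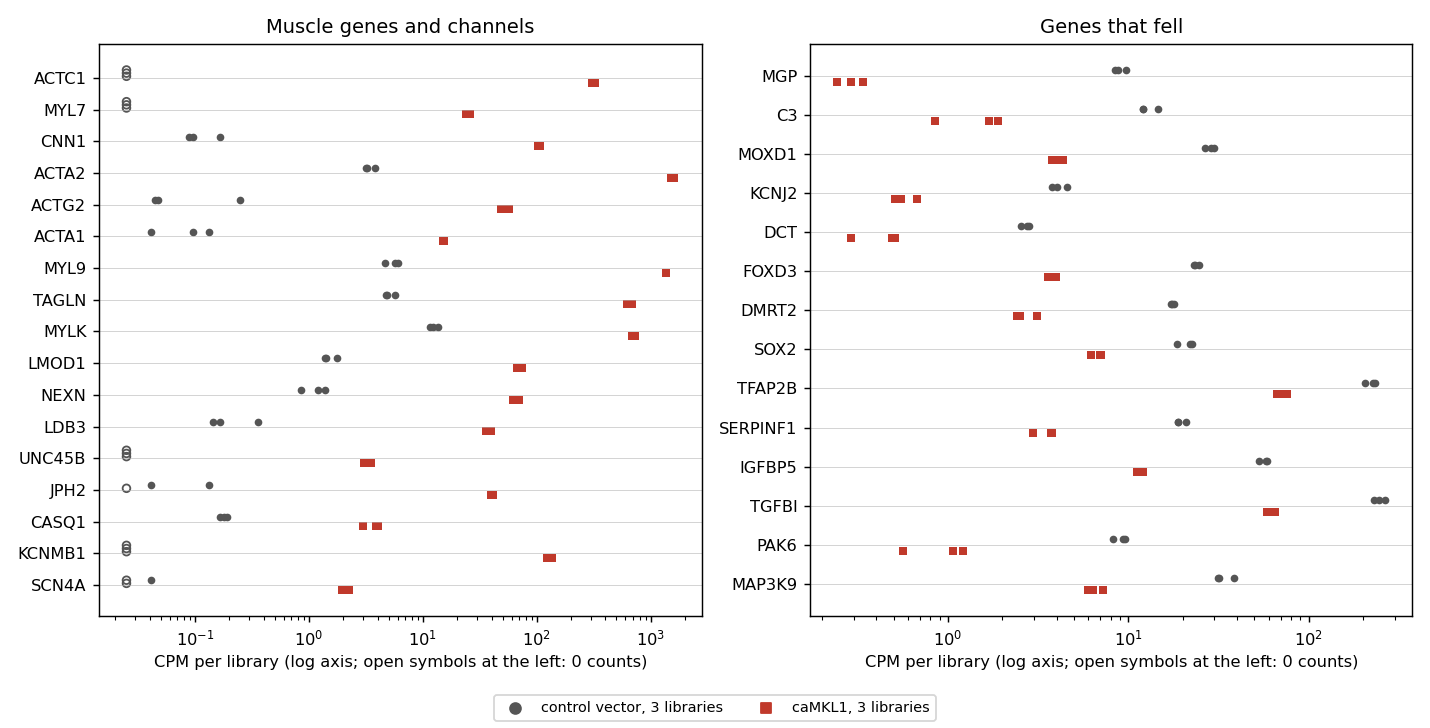
CPM per library on log axes for selected muscle genes and channels (left) and selected genes that fell (right); grey circles are the 3 control vector libraries, red squares the 3 caMKL1 libraries, and open symbols mark 0 counts. In every gene drawn the groups are apart; ACTC1, KCNMB1, MYL7 and UNC45B have open symbols in all control libraries, and most of the genes that fell keep levels above 0 in both groups.

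Genes of calcium handling and of the muscle membrane changed in smaller shares than contractile genes. In calcium handling, 6 of 34 tested genes (48 listed) rose at least 2-fold (17.6%) and 1 fell (2.94%), against background shares of 8.02% and 1.44%; of 28 control-expressed members, 3 rose that far and 1 fell. JPH2 (chromosome 20, 44111695 to 44187578), which ties the surface membrane to the calcium store in heart muscle, was at 0.133, 0 and 0.0413 CPM in the control libraries and at 41.2, 40.5 and 39.7 CPM with caMKL1 (log2 fold change 9.28 ± 0.193 SE). CASQ1, the calcium buffer of the skeletal muscle store, was at 0.178, 0.190 and 0.165 CPM against 4.00, 3.85 and 2.99 CPM. Both were close to 0 in all control libraries and raised in all caMKL1 libraries. SLC8A1, the sodium-calcium exchanger of heart, rose 3.18-fold and ITPR1, an inositol trisphosphate receptor of the store, 2.79-fold, while ITPR3, a second receptor of that family, fell 1.33-fold. RYR1, the calcium release channel of skeletal muscle, added after its values were seen, did not pass, at 0.845, 0.808 and 1.28 CPM against 1.54, 1.08 and 1.16 CPM. Of 40 genes of the muscle membrane complex and muscle metabolism, 23 were tested, 6 rose at least 2-fold (26.1%) and 2 fell (8.70%), and of 20 control-expressed members 5 rose that far and 1 fell. DMD, dystrophin, rose from 3.42, 3.90 and 3.47 CPM to 9.74, 8.43 and 7.99 CPM, and BVES, a membrane protein of striated muscle, rose 3.61-fold. SLC2A4, the insulin-responsive glucose transporter of muscle and fat, rose from 0.0889, 0.190 and 0.124 CPM to 5.59, 6.06 and 6.10 CPM.

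Of the regulators that define muscle lineages, several had no counts or did not pass, and NKX2-5 rose. MYOD1 and MYF5, which commit cells to skeletal muscle, had 0 counts in all 6 libraries, and MYOG had 1 count in the control group and 0 with caMKL1; a count of 0 allows up to 0.0443 CPM in the control group and 0.0547 CPM in the caMKL1 group, as counting error only. MEF2C, a partner of the skeletal and cardiac regulators, was at 14.4, 16.6 and 14.7 CPM against 15.2, 13.8 and 14.8 CPM, and GATA4, a cardiac regulator, at 18.9, 17.3 and 18.7 CPM against 18.6, 18.3 and 17.1 CPM. The groups overlapped in both and neither passed (edgeR adjusted p = 0.546 and 0.801). Of 34 tested regulators in the list of 51, 10 rose (29.4%, against 30.5% of all tested genes) and 16 fell (47.1%, against 33.1%), with a median log2 fold change of -0.15. At least 2-fold, 5 rose (14.7%, against 8.02% of all tested genes) and 2 fell (5.88%, against 1.44%), all of them among the 33 control-expressed members. The 5 that rose included MRTFA, the overexpressed gene itself, and SRF. NKX2-5, the homeobox factor of the early heart, was at 23.6, 23.4 and 22.7 CPM against 64.4, 62.0 and 64.4 CPM (1.45 ± 0.0555). NR2F1, an orphan nuclear receptor of atrial muscle and neural tissue, rose from 3.91, 4.99 and 5.04 CPM to 26.8, 24.8 and 23.5 CPM. SRF itself rose 4.09-fold, and MRTFB, the closest relative of MKL1, was at 47.6, 46.9 and 49.3 CPM against 40.4, 42.6 and 45 CPM, a small fall that was lost with DESeq2 and in the fits without control library 3 or caMKL1 library 1.

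Most classic cytoskeletal targets of MKL1 and SRF rose as well. Of 38 listed, 37 were tested, 33 rose, 2 fell, and 22 rose at least 2-fold (59.5%), with a median log2 fold change of 1.38. Of 36 control-expressed members, 21 rose at least 2-fold. TPM1, a tropomyosin, went from 76.6, 66.8 and 63.5 CPM to 1077, 1155 and 1097 CPM (4.01 ± 0.0621), and TPM2 from 182, 172 and 174 CPM to 1871, 1931 and 1916 CPM (3.44 ± 0.0404). VIL1, the microvillus protein villin, rose from at most 0.165 CPM to between 6.22 and 7.95 CPM, but it shares 3045 exonic bases with USP37 on the opposite strand. FLNA, filamin A, added after its values were seen, was at 11290, 10580 and 10534 CPM with caMKL1 against 2482, 2235 and 2125 CPM with the control vector. The members that fell were RHOB, a small GTPase of endosomes, at 97.8, 104 and 101 CPM against 50.1, 47.5 and 47.6 CPM, and ANXA1, which fell 1.25-fold. The formins, septins and myosins moved less, with 27 of 48 tested rising and 5 of them at least 2-fold (10.4%), or 3 of 44 control-expressed members.

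The promoters of the genes that rose most were examined for the CArG box, the sequence that SRF binds. RefSeq promoter windows (GRCh38.p14, 250 bases before to 50 after each start) were matched by symbol to 10820 of 13531 tested genes with a symbol, and both strands were searched. Each symbol was matched to a single window, and a gene can have other starts. Whether a window lies at the start of the full-length transcript was not checked, for MYLK among others. The sequences below are stretches around the box, 5′ to 3′ on the strand of the gene, with the CArG boxes in capitals. They are examples of genes that rose and hold this motif close to the start site of their window. Not all of the strongest rises do. Muscle genes stand first, then other genes that rose, then cytoskeletal genes and SRF.
ACTC1: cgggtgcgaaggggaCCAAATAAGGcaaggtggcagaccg
MYL7: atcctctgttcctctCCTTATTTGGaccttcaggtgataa
ACTG2: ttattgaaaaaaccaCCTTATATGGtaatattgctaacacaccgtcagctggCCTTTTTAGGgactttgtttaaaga
ACTA1: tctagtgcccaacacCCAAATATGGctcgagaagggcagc
LDB3: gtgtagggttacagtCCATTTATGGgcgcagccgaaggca
MYLK: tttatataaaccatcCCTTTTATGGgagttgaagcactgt
RPE65: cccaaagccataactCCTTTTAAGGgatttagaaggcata
GBP1: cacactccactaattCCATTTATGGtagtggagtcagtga
PDGFA: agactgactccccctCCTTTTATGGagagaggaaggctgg
NR2F1: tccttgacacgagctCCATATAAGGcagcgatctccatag
ACTG1: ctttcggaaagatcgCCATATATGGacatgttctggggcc
FLNA: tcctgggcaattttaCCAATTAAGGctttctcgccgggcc
SRF: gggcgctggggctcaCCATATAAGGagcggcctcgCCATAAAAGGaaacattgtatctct
The stretches lie at chr15:34795634-34795673 (minus strand) for ACTC1, chr7:44141369-44141408 (minus strand) for MYL7, chr2:73892883-73892959 (plus strand) for ACTG2, chr1:229434167-229434206 (minus strand) for ACTA1, chr10:86668439-86668478 (plus strand) for LDB3, chr3:123620618-123620657 (minus strand) for MYLK, chr1:68449982-68450021 (minus strand) for RPE65, chr1:89065350-89065389 (minus strand) for GBP1, chr7:520322-520361 (minus strand) for PDGFA, chr5:93583114-93583153 (plus strand) for NR2F1, chr17:81512869-81512908 (minus strand) for ACTG1, chrX:154374704-154374743 (minus strand) for FLNA and chr6:43171224-43171283 (plus strand) for SRF. Distances are to the start site of the matched window. The box began 109 bases before it in ACTC1, 61 in MYL7, 97 in ACTA1 and 57 in LDB3. In MYLK, FLNA and ACTG1 it began 94 bases before, and in RPE65 52. ACTG2 and SRF each had 2 boxes in the window.

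The share of windows with a CArG box followed the size of the rise. It was 17.4% (15 of 86) for genes that rose at least 16-fold, 5.79% (11 of 190) for rises of 4-fold to 16-fold, 2.37% (13 of 548) for rises of 2-fold to 4-fold and 1.22% (30 of 2458) for smaller rises, with folds as fitted. It was 0.800% for genes that did not pass, 0.850% for those that fell under 2-fold and 1.49% (2 of 134) for those that fell at least 2-fold. Over all tested genes it was 1.22%, and over all 27305 RefSeq windows it was 1.29%. A comparison motif with the same inner letters and its ends swapped was in 0 of the 86 windows of the top class and in 0.878% of the windows of all tested genes. The hexamer GGAATG, known from TEAD sites, was in 22.1%, 17.4%, 13.1% and 10.8% of the windows in the same order of classes, from rises of at least 16-fold to rises under 2-fold, against 11.0% of all tested genes. TGANTCA, the AP-1 site, was in 8.14%, 10.5%, 7.48% and 4.56%, against 4.63%. Over all 27305 RefSeq windows, GGAATG was in 14.0% and TGANTCA in 7.76%. A higher share among strong rises than among all tested genes was thus not particular to the CArG box. The top class stood further above all tested genes for the CArG box (17.4% against 1.22%) than for GGAATG or TGANTCA. These are matches of letters within 300 bases and not measured binding. Of the 12 largest rises, ACTC1, MYL7 and RPE65 had a box, and KCNMB1, CNN1, JPH2, NPAS4, VTCN1, CCDC190 and ZFP57 had none of these letters in their windows. NPPB and UNC45B were not matched to a window.

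**Figure D3:**
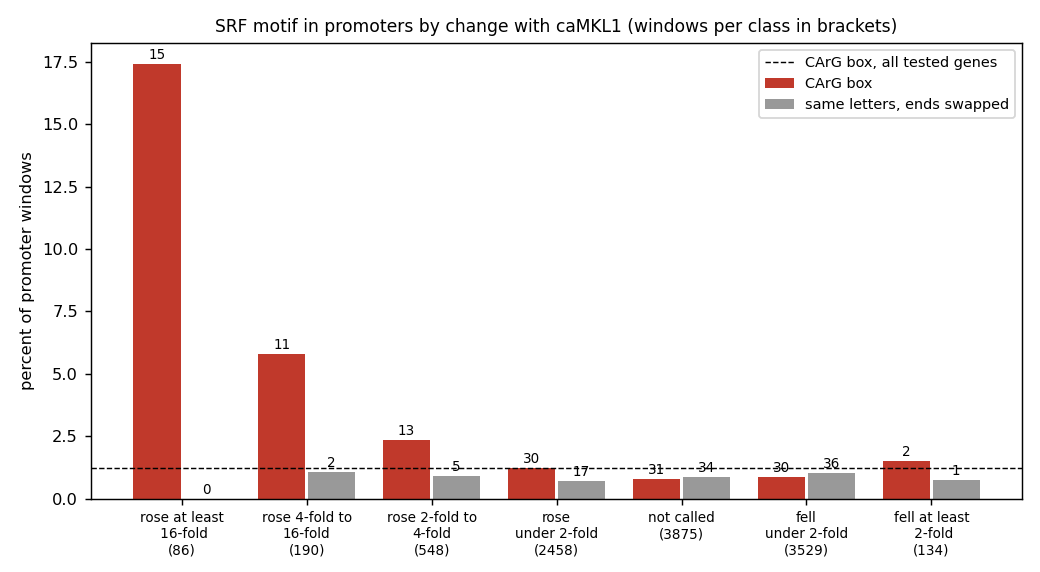
Percent of promoter windows with a CArG box (red) and with the end-swapped comparison motif (grey) for tested genes grouped by their change with caMKL1; numbers above the bars are windows with a match and numbers in brackets are windows per class. The CArG share falls from 17.4% at rises of at least 16-fold to 1.22% at rises under 2-fold, the level of all tested genes (dashed line).

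Ion channel genes with strong rises included accessory and muscle-type subunits. Of 100 listed potassium channel genes, 46 were tested; 12 rose at least 2-fold (26.1%) and 4 fell (8.70%). Of the 38 at 0.5 CPM or more in each control library, 5 rose at least 2-fold (background 5.50%) and 4 fell. KCNMB1 (ENSG00000145936, chromosome 5, 170374671 to 170389677) encodes the beta subunit that sets the calcium sensitivity of the BK potassium channel in smooth muscle. It had 0 counts in all control libraries and was at 133, 135 and 124 CPM with caMKL1, at least 2960-fold higher. The pore-forming subunit of that channel, KCNMA1, added after its values were seen, was at 22, 21.3 and 21.1 CPM against 19.3, 20.3 and 19.1 CPM and did not pass (log2 fold change -0.14, edgeR adjusted p = 0.093). KCNMB1 was thus counted in the caMKL1 libraries alone, and KCNMA1 in both groups. KCNH2, the hERG channel of heart repolarisation, had 1 count in the control group and 35 with caMKL1, a ratio of 43.3 with an exact 95% interval of 7.27 to 1760 that covers counting error only. HCN2, a pacemaker channel, rose 3.51-fold, and KCNN1, a small-conductance calcium-activated channel, 3.35-fold. In the other direction, KCNJ2 (chromosome 17, 70168673 to 70180048), the inward rectifier that holds the resting potential of muscle, fell from 4.05, 3.75 and 4.58 CPM to 0.675, 0.509 and 0.549 CPM (-2.81 ± 0.225), and KCNH1 and KCNK5 fell 2.27-fold and 2.12-fold.

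Of 6 sodium and calcium channel genes that rose at least 2-fold, 4 were below 0.5 CPM in at least 1 control library. SCN4A (chromosome 17, 63938554 to 63972918), the sodium channel of skeletal muscle, had 1 count in the control group and 116 with caMKL1, a ratio of 143 (exact 95% interval 25.2 to 5710), and was at 2.27, 2.09 and 1.95 CPM in the caMKL1 libraries. SCN2A, a neuronal sodium channel, rose 2.12-fold. Among 24 listed sodium channel genes, 12 were tested, 3 rose at least 2-fold (25.0%) and 2 fell (16.7%); of the 9 control-expressed, 1 rose and 2 fell that far. Of 11 tested voltage-gated calcium channel genes (25 listed) 3 rose at least 2-fold (27.3%) and none fell that far, and of the 8 control-expressed 1 rose. CACNA2D3, an auxiliary calcium channel subunit, rose from 0.222, 0.428 and 0.702 CPM to 4.15, 3.51 and 2.74 CPM, and CACNA2D1 2.04-fold. CACNG4, an auxiliary gamma subunit, had 2 counts against 64. Of 24 tested TRP and mechanosensitive channels (37 listed), 4 rose at least 2-fold (16.7%) and 0 fell that far. Of 21 control-expressed members, 1 rose that far, against a background of 5.50%. With the stricter filter the count of such rises in the list was 2. TRPC4 had 0 counts against 35 (at least 14.4-fold) and TRPC6, a receptor-operated channel of smooth muscle, 1 against 34. The mechanosensitive channel PIEZO1 stood at 221, 206 and 188 CPM against 194, 183 and 183 CPM, with groups that overlapped. Its call was lost with DESeq2, with median-ratio size factors, with the stricter filter and in the fits without control library 1 or 2 or caMKL1 library 2 or 3. LRRC8A, the obligate subunit of the volume-regulated anion channel, rose 2.60-fold from a level of 110, 103 and 96.0 CPM, and ANO1, a calcium-activated chloride channel, fell 1.86-fold. Of 28 tested chloride and volume channel genes (49 listed), 3 rose at least 2-fold (10.7%), and of 25 control-expressed members 1 did. No connexin or pannexin changed 2-fold among 11 tested. The nicotinic subunit CHRNA9 rose 5.46-fold and CHRNB2 fell 2.78-fold. Among ligand-gated channels as a whole, 18 of 28 tested genes (71 listed) rose (64.3%, against 30.5% of all tested genes) and 2 fell (7.14%, against 33.1%). At least 2-fold, 7 rose, and of 23 control-expressed members 4 did.

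Receptor genes rose and fell in small numbers. Of 346 listed G protein-coupled receptors, 133 were tested; 22 rose at least 2-fold (16.5%) and 5 fell (3.76%). Of the 104 expressed in every control library at 0.5 CPM or more, 6 rose at least 2-fold and 5 fell, near the background of 5.50% for rises and above that of 1.47% for falls. PTGER4, a receptor for prostaglandin E, rose from 0.222, 0.238 and 0.289 CPM to 4.10, 4.87 and 3.29 CPM, and EDNRA, the endothelin receptor of smooth muscle, from 0.711, 0.855 and 0.206 CPM to 5.06, 4.30 and 4.27 CPM. EDN1, which encodes endothelin, had 2 counts in the control group and 84 with caMKL1 (ratio 51.9, exact 95% interval 13.9 to 436). GPR17 was higher as well, but it shares 196 exonic bases with LIMS2 on the opposite strand. The protease-activated receptors, which thrombin and trypsin switch on, were lower: F2RL1 went from 4.18, 3.71 and 3.76 CPM to 0.530, 1.08 and 0.610 CPM, and F2R from 65.3, 59.9 and 63.9 CPM to 28.1, 24.7 and 24.4 CPM. F2RL2 fell 1.64-fold. In all of these the groups did not overlap. ADRA1B, an alpha-adrenergic receptor, fell 5.06-fold.

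Among cytokine receptors, strong rises and falls stood side by side. IL7R (chromosome 5, 35852695 to 35879603), the receptor chain for interleukin 7, was at 22, 18.9 and 20.03 CPM in the control libraries and at 186, 204 and 194 CPM with caMKL1 (log2 fold change 3.26 ± 0.0605 SE, edgeR adjusted p = 5.25e-15). IL31RA, a receptor chain of the interleukin 6 family, went from 5.02, 5.13 and 5.33 CPM to 51.4, 56.7 and 49.1 CPM (3.34 ± 0.0824). Both were about an order of magnitude higher in each caMKL1 library. IL6R and LIFR, other receptors of that family, fell 1.84-fold and 1.81-fold, and TNFRSF8, the CD30 receptor, fell 3.91-fold. Over the list, 7 of 66 tested members rose at least 2-fold (10.6%) and 3 fell (4.55%), against 8.02% and 1.44% of all tested genes; of the 61 members expressed in each control library, 4 rose and 3 fell at least 2-fold. Of 39 tested receptor tyrosine kinases (57 listed), 7 rose at least 2-fold (17.9%) and 2 fell (5.13%). Of 32 control-expressed members, 3 rose and 2 fell that far. EPHB2, MET and EPHA4 rose 2.90-fold, 2.15-fold and 2.39-fold, and EPHB3, FLT1 and ERBB3 fell 3.21-fold, 2.08-fold and 1.62-fold. MET, the receptor of hepatocyte growth factor, was at 107 CPM in each control library and at 231, 231 and 229 CPM with caMKL1. Integrins split as well: of 19 tested (26 listed), 3 rose at least 2-fold (15.8%) and 2 fell (10.5%). The same numbers held among 18 control-expressed members, with 3 rises and 2 falls. ITGA1 and ITGA5, collagen and fibronectin receptor chains, rose from 133, 151 and 150 CPM to 810, 841 and 885 CPM and from 275, 261 and 255 CPM to 1331, 1274 and 1230 CPM. ITGA7, the laminin receptor chain of muscle, rose 4.64-fold, whereas ITGA9 fell 3.93-fold, ITGA10 2.28-fold and ITGA4 1.82-fold. ITGA1 shares 475 exonic bases with PELO on the same strand.

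**Figure D4:**
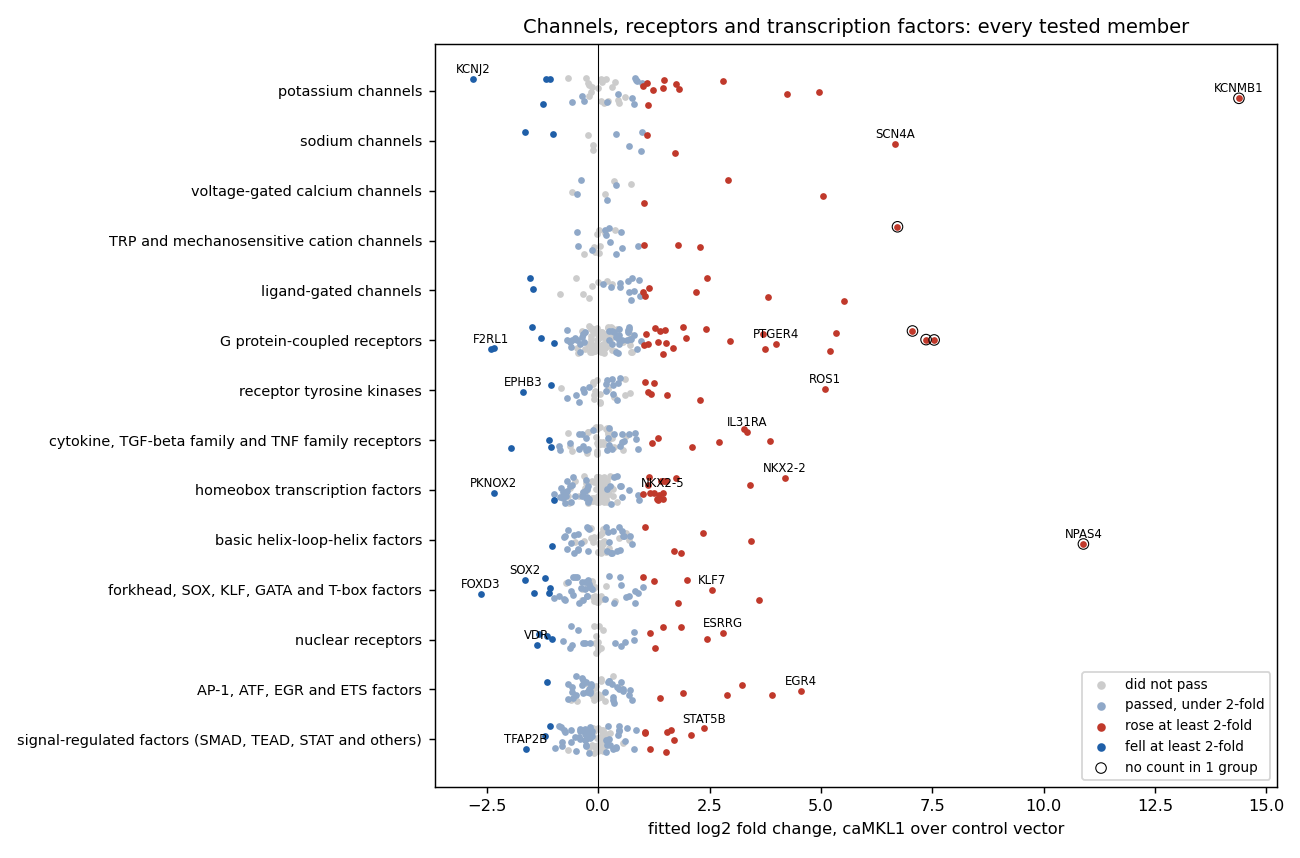
Fitted log2 fold change with caMKL1 (horizontal axis) of every tested member of 14 lists of channels, receptors and transcription factors; each point is a gene, colours give the call, rings mark genes with no count in 1 group, and the vertical scatter within a list has no meaning. Most members lie near 0, and single genes such as KCNMB1, NPAS4, SCN4A and ROS1 lie far to the right and FOXD3, KCNJ2 and PKNOX2 far to the left.

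Transcription factors as a class did not rise. Of 1312 tested genes that the deposited table annotates with a transcription factor family, 278 rose (21.2%, against 30.5% of all tested genes) and 472 fell (36.0%, against 33.1%), with a median log2 fold change of -0.09; 76 rose at least 2-fold (5.79%) and 21 fell at least 2-fold (1.60%). The classes differed. Zinc finger genes of the C2H2 type made up 577 of the 1312, and 3.29% of them rose at least 2-fold. Of 111 tested homeobox factors, 16 rose that far (14.4%, against 8.02% of all tested genes), and 13 of 103 control-expressed ones. Of 33 tested nuclear receptors, 6 rose (18.2%) and 4 fell (12.1%, against 1.44%) at least 2-fold, and of 32 control-expressed ones 5 and 4. The basic helix-loop-helix list was nearer to the background, with 9.52% rising that far. NPAS4, an activity-induced factor of neurons, had 0 control counts and was at 11.8, 13.5 and 9.45 CPM with caMKL1, at least 263-fold higher. NKX2-2, a homeobox factor of the ventral neural tube and pancreas, went from 0.711, 0.998 and 1.20 CPM to 17.9, 18.2 and 17.5 CPM (4.19 ± 0.139). EGR4, an early growth response factor, was at no more than 0.178 CPM in the control libraries and at 2.80, 3.28 and 2.68 CPM with caMKL1. Its relative EGR1 did not pass, and was at 19.7, 20.3 and 18.1 CPM against 20.6, 18.1 and 19.4 CPM (edgeR adjusted p = 0.981). FOS, an AP-1 factor, rose 1.42-fold. POU2F3, a factor of tuft cells, rose 10.6-fold, EHF, an epithelial ETS factor, 9.38-fold, and ESRRG, an oestrogen-related receptor of oxidative muscle, 6.97-fold. KLF7, a Krüppel-like factor, rose from 10.0, 9.98 and 9.99 CPM to 56.4, 62.0 and 58.7 CPM, and STAT5B, a mediator of cytokine receptors, from 34, 33.8 and 32.5 CPM to 174, 164 and 180 CPM.

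The transcription factors that fell included several of the neural crest, but neural crest genes as a list went both ways. Of 35 tested neural crest and dedifferentiated melanoma genes, 14 rose and 14 fell. At least 2-fold, 8 rose (22.9%, against 8.02% of all tested genes) and 3 fell (8.57%, against 1.44%). Of 34 control-expressed members, 7 rose and 3 fell that far. FOXD3 (chromosome 1, 63323041 to 63325126), a factor of early neural crest, went from 23.2, 24.6 and 23.3 CPM to 3.90, 3.57 and 3.96 CPM (log2 fold change -2.63 ± 0.0915 SE, edgeR adjusted p = 6.51e-12). TFAP2B (chromosome 6, 50818723 to 50847613), another neural crest factor, went from 205, 232 and 227 CPM to 75.3, 66.8 and 72.0 CPM (-1.63 ± 0.0579), and SOX2, a factor of neural stem cells, from 18.7, 22 and 22.7 CPM to 6.94, 6.23 and 7.07 CPM (-1.65 ± 0.1). In each the groups were clearly apart. PKNOX2, a homeobox factor, fell 5.09-fold, TBX2, a T-box repressor active in melanoma, 2.73-fold, VDR, the vitamin D receptor, 2.61-fold, PPARG, the nuclear receptor of fat cells, 2.22-fold, and RXRG, a retinoid receptor of neural crest, 2.05-fold. The forkhead, SOX, KLF, GATA and T-box list as a whole had 17 of 65 tested members that rose (26.2%, against 30.5% of all tested genes) and 29 that fell (44.6%, against 33.1%). At least 2-fold, 6 rose and 6 fell (9.23% each, against 8.02% and 1.44%). Of 61 control-expressed members, 4 rose and 6 fell that far. The lineage factors at the head of the melanocyte list moved little. SOX10 was at 884, 938 and 977 CPM against 828, 746 and 799 CPM (-0.24 ± 0.0467), and MITF at 33.8, 39.6 and 39.5 CPM against 34.6, 31.5 and 34.4 CPM, where the groups overlapped and the test was not passed (adjusted p = 0.0554, passed under 4 alternative settings). TFAP2A, the relative of TFAP2B, rose 1.37-fold. Of 29 tested melanocyte and pigment genes, 10 rose (34.5%) and 8 fell (27.6%), near the shares of all tested genes (30.5% and 33.1%). DCT, an enzyme of melanin synthesis, fell from 2.53, 2.80 and 2.73 CPM to 0.289, 0.509 and 0.488 CPM, while RAB27A, which moves pigment granules, rose 2.44-fold.

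Among the genes that fell with a mean of at least 1 CPM over the 6 libraries and counts in both groups, the largest fitted change was in MGP (ENSG00000111341, chromosome 12, 14881181 to 14885926), an inhibitor of calcification in cartilage and vessels, from 9.69, 8.46 and 8.76 CPM to 0.289, 0.340 and 0.244 CPM (log2 fold change -4.91 ± 0.205 SE). C3, the central complement component, went from 14.5, 12.1 and 12.1 CPM to 1.69, 0.849 and 1.89 CPM, and MOXD1, a copper monooxygenase of neural crest, from 26.5, 28.7 and 29.9 CPM to 3.76, 3.96 and 4.33 CPM. CTNNAL1, a relative of alpha-catenin, was at 96.7, 99.1 and 105 CPM against 16.6, 17.5 and 20.2 CPM (-2.48 ± 0.0689). DMRT2, a doublesex-related factor of early muscle and skin pigment cells, fell 6.57-fold and SERPINF1, an inhibitor of vessel growth, 5.62-fold. ALPP, which has near copies, fell 9.55-fold. PAK6, a p21-activated kinase, fell 9.48-fold, but it shares 2548 exonic bases with a readthrough gene on the same strand. PEX19, whose symbol stands for a pair of overlapping gene entries with 729 shared exonic bases, had 1 entry among the largest falls and the other entry 1.12-fold higher, so no direction is given for it. UTP14C had 221 counts in the control group and 0 with caMKL1, at least 59.6-fold lower, and 4100 of its 5529 exonic bases are shared with ALG11 on the same strand, so that reads could have been assigned to either. TH, the first enzyme of catecholamine synthesis, had 35 counts against 1, and MMP13, a collagenase, 46 against 3.

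Secreted proteins and matrix were among the groups with the most strong rises outside muscle. EGF (chromosome 4, 109912884 to 110012266), the ligand of the epidermal growth factor receptor, went from 2.49, 2.38 and 2.56 CPM to 71.2, 75.4 and 71.6 CPM (log2 fold change 4.87 ± 0.0795 SE, edgeR adjusted p = 1.19e-15). PDGFB and PDGFA, ligands of the platelet-derived growth factor receptors, rose 11.1-fold and 6.18-fold, and BDNF, a neurotrophin, 5.05-fold. NPPB, the heart hormone BNP, had 0 control counts and was at 4.05, 3.28 and 3.84 CPM with caMKL1, at least 84.5-fold higher. Among secreted growth factors as a whole, 17 of 80 tested genes (152 listed) rose at least 2-fold (21.2%) and 3 fell; among the 68 expressed in each control library 9 rose at least 2-fold. Of chemokines and interleukins, 9 of 24 tested (94 listed) rose at least 2-fold (37.5%) and 1 fell, and of 20 control-expressed members 5 rose that far. CXCL8, a chemokine for neutrophils, rose from 5.73, 10.9 and 11.8 CPM to 103, 99.1 and 102 CPM, IL24 9.29-fold and CXCL1 3.15-fold, and IL6 had 1 count against 119. Matrix glycoproteins and proteoglycans had 20 of 64 tested members that rose at least 2-fold (31.2%) and 4 that fell (6.25%); of 61 control-expressed members, 17 rose and 4 fell that far. The matricellular genes CCN1 and CCN2 rose from 42.4, 39.6 and 38.7 CPM to 176, 187 and 168 CPM and from 48.6, 39.2 and 42.3 CPM to 219, 231 and 215 CPM, and IGFBP7, which binds growth factors, rose 13.2-fold. Fibroblast markers, which include collagen and matrix genes, summed to between 10.2 and 10.4 CPM with the control vector and to between 20.7 and 22.8 CPM with caMKL1, with DPT at 0 counts in all libraries and 2 of 5 tested markers rising; their part in the matrix changes was not tested. TGFBI, a collagen-binding protein, and IGFBP5 went the other way, from 265, 247 and 230 CPM to 65.2, 62.3 and 58.8 CPM and from 53.1, 58.8 and 58.3 CPM to 11.2, 12.1 and 11.6 CPM. Collagen chains rose at least 2-fold in 11 of 34 tested cases (32.4%) and in 7 of 28 control-expressed cases, among them COL22A1 (5.90-fold), a collagen of muscle-tendon junctions, and COL13A1 (3.81-fold), a membrane collagen, while COL6A1 fell 1.89-fold.

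**Figure D5:**
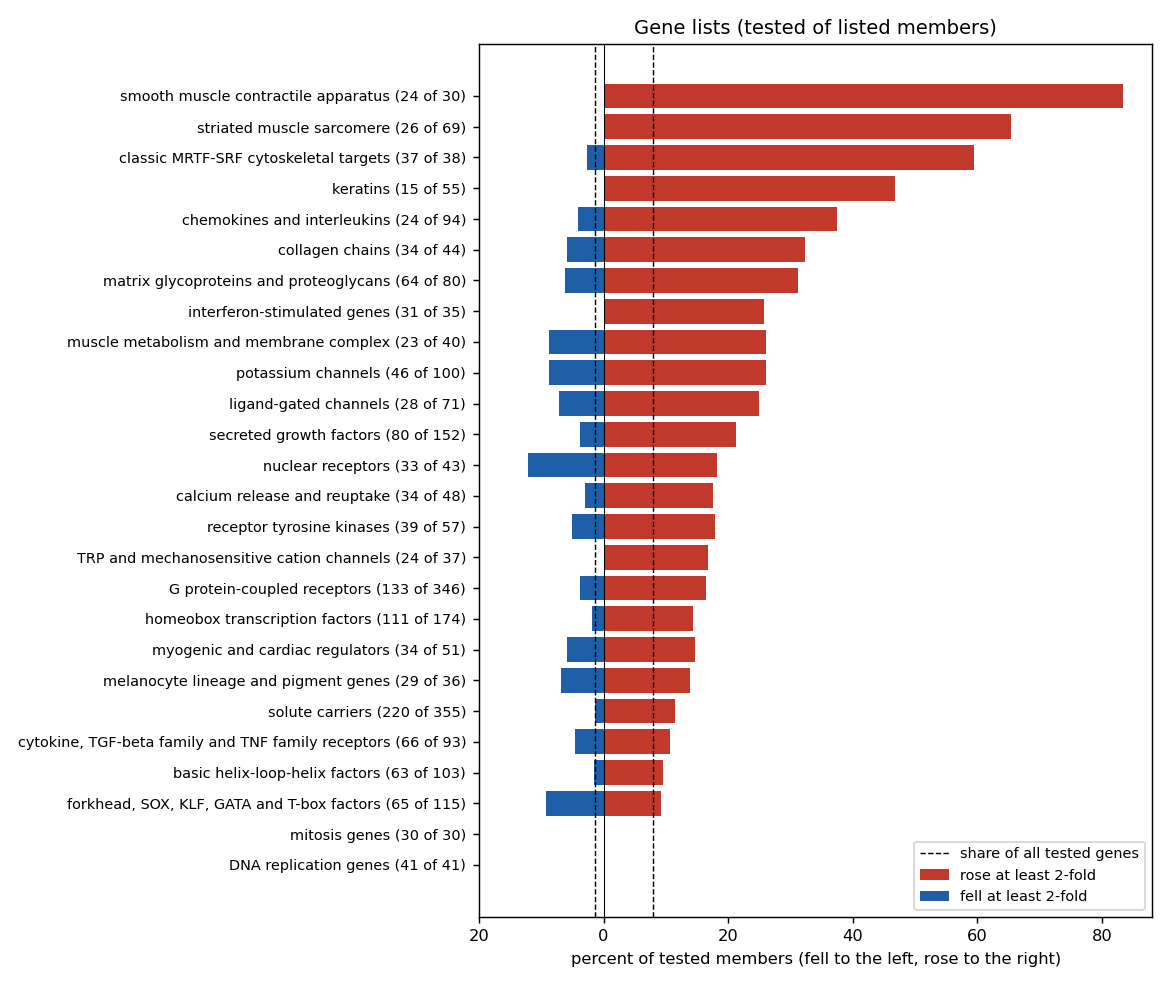
Percent of the tested members of each gene list that rose at least 2-fold (red, to the right) or fell at least 2-fold (blue, to the left) with caMKL1; the numbers in brackets are tested of listed members, and the dashed lines mark the shares of all tested genes, 8.02% and 1.44%. Smooth muscle genes (83.3%), sarcomere genes (65.4%) and cytoskeletal targets (59.5%) have the longest bars of the lists drawn, and mitosis and DNA replication genes have none.

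A few further groups moved. Keratins rose at least 2-fold in 7 of 15 tested genes (55 listed, 46.7% of those tested, against 8.02% of all tested genes) and in 4 of 10 control-expressed ones. KRT17, a keratin of stressed epidermis, went from at most 0.178 CPM to 8.53, 8.60 and 9.27 CPM, and KRT9, of palm and sole skin, from 1.51, 1.66 and 1.49 CPM to 59.1, 58.8 and 60.7 CPM, while KRT18 fell 1.5-fold. Epithelial markers as a fixed list summed to between 247 and 254 CPM with the control vector and to between 200 and 207 CPM with caMKL1. Of 31 tested interferon-stimulated genes, 14 rose and 6 fell, and 8 rose at least 2-fold (25.8%) while none fell that far; of 29 control-expressed members, 7 rose at least 2-fold. Those that rose included GBP1, a guanylate-binding protein, from 6.00, 6.46 and 7.14 CPM to 175, 191 and 179 CPM, and DDX58, the RNA sensor RIG-I, from 3.29, 1.71 and 2.52 CPM to 52.6, 56.1 and 57.5 CPM. Among the smaller falls, the transcription factors IRF1 and IRF7 fell 1.53-fold and 1.67-fold and IFIT2 fell 1.43-fold. Of surface genes read by lymphocytes, CD274, which encodes PD-L1, rose from 2.13, 2.61 and 1.69 CPM to 7.09, 7.53 and 6.22 CPM, VTCN1, a related inhibitory ligand, had 0 control counts and was at 6.99, 9.11 and 8.60 CPM (at least 184-fold higher), and ICAM1, the adhesion ligand, fell 1.38-fold. RPE65 (chromosome 1, 68428822 to 68449959), the retinoid isomerase of retinal pigment epithelium, was among the largest rises, at no more than 0.0445 CPM in the control libraries and at 107, 104 and 92.1 CPM with caMKL1.

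Proliferation genes fell together by small amounts. DNA replication genes fell in 39 of 41 tested cases (95.1%, against 33.1% of all tested genes) with a median log2 fold change of -0.56, and mitosis genes in 25 of 30 with a median of -0.30; none of either list changed 2-fold. TYMS, which makes thymidylate and shares 967 exonic bases with ENOSF1 on the opposite strand, went from 252, 248 and 244 CPM to 124, 128 and 124 CPM. MCM2, a subunit of the replicative helicase, fell 1.85-fold, and MKI67, the Ki-67 gene, went from 899, 903 and 858 CPM to 555, 608 and 603 CPM. The groups did not overlap in these. The one mitosis gene that rose was ANLN, an actin-binding scaffold of the cytokinetic ring, 1.5-fold. E2F1, a driver of replication genes, fell from 70.3, 65.2 and 65.4 CPM to 37.1, 36.1 and 36.0 CPM, and MYC fell 1.69-fold.

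Unmodified MKL1 was compared with the active form. MRTFA counts were not equal: they averaged 737 CPM with MKL1 and 464 CPM with caMKL1, a log2 difference of -0.65 (edgeR adjusted p = 1.91e-10), and the part of this in the differences that follow was not tested. In a fit of the 9 overexpression libraries, 7164 of 13720 tested genes differed between caMKL1 and MKL1 (52.2%), with 3463 higher (25.2%) and 3701 lower (27.0%) with caMKL1. ACTA2 averaged 12.1 CPM with MKL1 and MYL9 37.4 CPM, both between the control and the caMKL1 level; the difference from caMKL1 was 7.02 for ACTA2 and 5.20 for MYL9 on the log2 scale. ACTC1 and KCNMB1 averaged 0.0137 and 0.0905 CPM with MKL1, and CNN1 and JPH2 0.134 and 0.0835 CPM. Against the control vector, MKL1 did not pass for ACTC1, CNN1 or JPH2 (edgeR adjusted p = 0.371, 0.906 and 0.689) and passed for KCNMB1 (edgeR adjusted p = 0.0427), which had 0 control counts. SRF averaged 71.3 CPM with MKL1, and it was 1.90 higher with caMKL1 on the log2 scale (edgeR adjusted p = 7.58e-16). NKX2-5 was slightly lower with MKL1 than with the control vector (-0.17, edgeR adjusted p = 0.0279) and higher with caMKL1 than with MKL1 (1.62), and DCT was higher with MKL1 than with the control vector (0.50, edgeR adjusted p = 0.0413) and lower with caMKL1 than with MKL1 (-3.16). MGP fell with both forms, to an average of 1.51 CPM with MKL1. COL5A1, a fibrillar collagen chain, was lowest with MKL1, at 19.1 CPM, and 1.27 higher on the log2 scale with caMKL1. Both forms share the control libraries, so their changes against the control vector are not independent.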

How the data were processed

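Per the labels' protocols, polyadenylated RNA from Trizol extracts was turned into libraries using NEBNext Ultra reagents. The submitters' processing notes list GRCh38, RSEM, DESeq2, HISAT2 2.2.4, Bowtie2 2.2.8 and StringTie 1.3.1, with no role or order. Annotation release and strand use: not given in the sources used here. The deposited counts are whole numbers per gene and library, per the file headers, and may be rounded estimates, since RSEM is named. FPKM values were deposited by the authors and are used only to set levels of genes side by side. The deposited table also holds log2 fold changes and p-values of a test that its headers leave unnamed; only the authors' call counts are quoted. Rows without a symbol made up 0.832% of the table. With strand use unknown, reads of overlapping antisense genes cannot be told apart.

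Tests ran in R 4.3.3 with edgeR 4.0.16 (TMM, filterByExpr, glmQLFit and glmQLFTest, two-sided, Benjamini-Hochberg, threshold 0.05) on the counts of the 6 libraries. A joint fit of 9 libraries served the contrast of caMKL1 and MKL1, since the control counts were identical for all 20323 genes of both tables. The same edgeR steps were run separately on simulated counts with far fewer changed genes than here, and no result rests on that run. A call at least 2-fold needs a log2 fold change of at least 1 as well. An SE is the size of the log2 fold change over the root of its F statistic; single folds are the fitted ones. At these depths 3 counts in a library correspond to between 0.124 and 0.183 CPM. Folds against a group with 0 counts are bounds against 3 counts over that group; with 1 to 3 counts, ratios have exact 95% intervals. Bounds and intervals cover counting error only. DESeq2 1.42.0 was an alternative. Replicate pairs differed by 1.81 to 8.37 times the sampling variance, so no library was a copy of another. Positions and exonic overlaps come from GENCODE 29 on GRCh38, and promoter sequences from RefSeq GRCh38.p14. Overlaps are not stated for every named gene. On opposite strands, for example, ITPR3 shares 1025 exonic bases with UQCC2, KRT18 525 with KRT8 and IGFBP7 270 with POLR2B.

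Earlier results of these data were known when the comparison, its gene lists and the naming rule were chosen. The rule names MRTFA, MRTFB, MYOCD and SRF; the 12 largest rises and 12 largest falls with a mean of at least 1 CPM, an adjusted p under 0.05 and groups apart; up to 6 members per list and direction; and fixed actin, muscle, melanocyte and immune genes. Genes that share a symbol were counted once per list, by the more abundant entry. Outside the rule, MYLK, LMOD1, MYH11, RYR1, FLNA, ACTG1 and KCNMA1, and genes with at most 3 counts in 1 group, were chosen after their values were seen.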

Additional observations from a re-analysis of the deposited data

How the results depend on the processing

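Against the control vector, the count of genes that changed ranged from 7600 with DESeq2 to 8862 without a low-count filter, and from 7829 to 8822 when 1 library was left out. Genes that rose at least 2-fold numbered 927 to 1334 and genes that fell at least 2-fold 162 to 249 over the alternatives chosen with the design. Counting the same calls only among genes at 0.5 CPM or more in each control library gave 706 such rises and 189 falls. That count was added after the data were seen. It involved no new fit and differs by construction through the genes removed. Scaling by library totals gave 3903 rises and 4798 falls, and median-ratio size factors 4354 and 4221. Between caMKL1 and MKL1 the count was 6194 to 7692. Same-numbered libraries of both groups had correlations of 0.103, 0.0254 and 0.0246 in their deviations, so the numbers were not taken to pair them; with a replicate block 8710 genes changed, and 7396 between caMKL1 and MKL1. For named genes, 5657 values kept direction and side of the threshold, 123 no longer passed, 4 (all MITF) newly passed and none changed direction. Of the list counts, those among control-expressed members included, 668 stayed within 1.5 times and 32 moved further. Low counts limit lists with few tested members, such as chemokines and interleukins, with 24 of 94 tested, and keratins, with 15 of 55.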
